A study of Mus musculus with 6 samples.

Results

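Oxidative phosphorylation is described here through the genes of its subunits in GFP+Lin-c-Kit+ AE9a leukemia cells. The members were all genes whose name begins as a subunit of complex I (Nduf followed by a, b, c, s or v and a number, and mt-Nd), II (Sdha to Sdhd), III (Uqcr and mt-Cytb), IV (Cox followed by a number from 4 to 8, and mt-Co) or V (Atp5 and mt-Atp). Of 53618 named genes, 103 matched and 7 of these were pseudogenes and were left out. The remaining 96 members comprised 83 genes of the nuclear genome and all 13 protein-coding genes of the mitochondrial genome (mt-). Values are read counts that the authors divided by a size factor for each library, called normalized counts. A gene was tested when at least 3 libraries held a value of 10 or more, which 77 nuclear and 10 mt- members met.

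AE9a, a shortened form of the AML1-ETO fusion, causes acute myeloid leukemia in mice. Fetal liver cells of Usp18+/f UBCER-Cre mice carried it from a retrovirus that also expresses GFP, and were transplanted into irradiated C57BL/6 recipients of 8 to 12 weeks of age. In both groups the leukemia cells carried the floxed Usp18 allele and a Cre recombinase driven by the broadly active ubiquitin C promoter, which tamoxifen activates. Once sick, recipients were injected with oil (Usp18+/f, 3 mice) or with tamoxifen at 100 mg/kg (Usp18+/Δ, 3 mice), and spleen cells were sorted 3 days after the first injection, giving 3 libraries in each group. The control mice received no tamoxifen, so that the drug and the loss of the allele cannot be told apart. The comparison asks how losing 1 allele of Usp18, a negative regulator of interferon signaling, alters the leukemia transcriptome.

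The respiratory chain passes electrons from NADH (complex I) or succinate (complex II) through complex III to oxygen at complex IV, and complex V uses the resulting proton gradient to make ATP. Complexes I, III, IV and V are assembled from subunits of both genomes, while every subunit of complex II is nuclear. The mt- subunits form the membrane core of their complexes. They are transcribed within long precursors by the mitochondrial RNA polymerase, whereas nuclear subunits are made in the cytosol and imported.

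The libraries held 19172471 to 23785143 reads. Usp18 went against the labels, at 217, 214 and 176 normalized counts with oil (the libraries labelled oil 1, 2 and 3, in this order throughout) and 477, 329 and 284 with tamoxifen (log2 fold change 0.81 ± 0.25 SE, limma adjusted p = 0.666), so groups are named below by their labels. These counts cover the whole gene, and its deleted part was not counted apart. By qRT-PCR and western blot, the paper reports higher interferon responses in sorted Usp18+/Δ leukemia cells. From bulk RNA-seq of such cells it also reports upregulated genes, at thresholds of its own, and enrichment of interferon pathways. Over all 6 libraries limma called 0 of 12298 genes at an adjusted p of 0.05 (0%), edgeR called 0 and DESeq2 71, and 550 genes had an unadjusted p under 0.05 in limma (4.47%). The library labelled tamoxifen 1 stood apart from the other 5, with 41.6% of all genes tested below and 41.1% above every other library. Without it limma called 41 genes (0.333%). The sorted cells held their defining transcripts, with Kit between 4687 and 10976 normalized counts and Runx1t1, the ETO partner of the fusion, between 1532 and 2097.

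Markers of other cells differed between the groups as well, and their part in the results below was not tested. The summed level of 7 macrophage markers was 83.9 to 179 in the libraries labelled oil and 199 to 284 in those labelled tamoxifen, with 4 of the 7 higher in every library labelled tamoxifen, as were 7.86% of all genes tested. That of 5 neutrophil markers was 4.64 to 7.72 and 22.7 to 43.5, with 4 of 5 higher and Ly6g at 0 in every library. Of the 5 T cell markers none exceeded 3 reads, and the B cell marker Ms4a1 was at 0 in every library. The summed level of the B cell markers was 3.71 to 9.65 with oil and 6.06 to 24.3 with tamoxifen, and Cd79b was higher in every library labelled tamoxifen (1.80, 2.89 and 0.929 with oil, 16.6, 5.05 and 6.37 with tamoxifen). The sum of 4 erythroid markers was 27655 to 41053 with oil and 32798 to 61133 with tamoxifen, and that of 4 mast cell and basophil markers was 26305 to 26903 and 8035 to 29795. Of the latter, Mcpt8 was higher in every library labelled tamoxifen (27.8, 26.05 and 40.9 with oil, 60.1, 78.8 and 96.4 with tamoxifen) and Ms4a2 lower (17754, 19301 and 19161 with oil, 2965, 16499 and 14036 with tamoxifen). In bulk RNA, fewer cells of a type and less RNA per cell cannot be told apart.

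Several mt- members have near-identical copies in the nuclear genome, and their counts are therefore uncertain. By itself, a read of 150 bases (the read length of these libraries) can be placed only where its sequence is unique. Every 150-base window of each mt- transcript was therefore looked up in all other transcripts of the GENCODE vM21 annotation (GRCm38, the assembly also called mm10). The reads were sequenced in pairs, and placement through the other read of a pair was not considered. For mt-Co2, mt-Atp6, mt-Co3, mt-Nd4l and mt-Nd3, 99.4%, 99.4%, 99.8%, 98.0% and 97.0% of the windows occurred unchanged in an annotated pseudogene on chromosome 1, namely Gm28661, Gm10925, Gm28437, Gm10222 and Gm28438. mt-Nd4 shared 59.2% of its windows, chiefly with Gm28439 beside them, and mt-Co1 shared 23.6%. mt-Nd1, mt-Nd2, mt-Nd5, mt-Nd6 and mt-Cytb shared none. mt-Atp8 shared none either, although 21.1% of its 204 bases overlap mt-Atp6. How reads with several places of origin were counted is not given in the sources used here, and the part of these copies in the counts was not tested.

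The contrast is visible in 100 bases of 2 members. The stretch of mt-Co2 at chrM:7303-7402 (plus strand, GRCm38) is the same, letter for letter, in Gm28661 (chr1:24614885-24615565). The stretch of mt-Nd5 at chrM:12462-12561 differs from its closest annotated copy, Gm4076 (chr13:85126550-85127514), at 6 bases, in capitals below. Counted from the 5′ end of the mt-Nd5 transcript, the changes from mt-Nd5 to the copy are A735G, T771C, C774T, C789T, C795A and G801A.
mt-Co2 and Gm28661: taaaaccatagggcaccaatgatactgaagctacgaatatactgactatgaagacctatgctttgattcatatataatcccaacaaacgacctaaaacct
mt-Nd5: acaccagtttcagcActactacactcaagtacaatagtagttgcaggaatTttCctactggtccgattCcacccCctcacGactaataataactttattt
Gm4076: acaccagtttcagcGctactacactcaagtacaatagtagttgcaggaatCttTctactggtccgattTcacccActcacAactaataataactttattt

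The mt- members comprised 7 abundant and 6 low ones. The abundant members were mt-Nd1, mt-Nd2, mt-Nd5, mt-Nd6 and mt-Cytb, which shared no window, and mt-Co1 and mt-Nd4, which shared some. mt-Co1, the catalytic subunit of complex IV (chrM:5328-6872), had 96559.8, 117026 and 97646 normalized counts with oil and 1031, 129603 and 140116 with tamoxifen. mt-Nd1, a membrane subunit of complex I, had 33468, 37245 and 37090.2 with oil and 166, 45572 and 48429.6 with tamoxifen. mt-Cytb, the cytochrome b of complex III, had 30969, 36562 and 32975 with oil and 221, 43994 and 46426 with tamoxifen. In each of these genes the library labelled tamoxifen 1 lay far below the other 5, while those labelled tamoxifen 2 and 3 lay above every library labelled oil, as they did in 12.6% of all genes tested.

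The other abundant members, all of complex I, repeated the order. mt-Nd5 had 18244, 22170.4 and 18584 normalized counts with oil and 311, 25132 and 31585 with tamoxifen. mt-Nd4 had 14025, 18273 and 15703 with oil and 98.4, 21459 and 23996 with tamoxifen. mt-Nd2 had 11858, 14304 and 13567 with oil and 95.9, 16646 and 16835 with tamoxifen. mt-Nd6, the only mt- member on the other strand of the genome, had 3262, 3649.7 and 2852 with oil and 62.6, 4207 and 5349 with tamoxifen. The strand setting of the counting is not given in the sources used here, so reads of mt-Nd6 and of precursors from the opposite strand cannot be told apart.

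The 5 members with a nearly complete copy, and mt-Atp8, had low counts. mt-Co2 had 139, 152 and 128 normalized counts with oil and 1.28, 121 and 96.4 with tamoxifen, and Gm28661 had 181, 215 and 188 and then 1.28, 192 and 165. mt-Co3 had 146, 123 and 142 with oil and 2.56, 149 and 83.7 with tamoxifen. mt-Atp6, the proton-channel subunit a of complex V, had 104, 92.6 and 101 with oil and 1.28, 95.0 and 63.7 with tamoxifen. mt-Nd3 lay between 6.37 and 15.8 and mt-Nd4l between 0.909 and 3.59 outside the library labelled tamoxifen 1, which held no read of either, a count that allows up to 3 reads. mt-Atp8 had 3 reads in the library labelled tamoxifen 3 and none elsewhere. Summed, these 6 members had 402, 378 and 388 normalized counts with oil and 5.11, 381 and 254 with tamoxifen, and for the 5 with a nearly complete copy, reads of the gene and of the copy cannot be told apart.

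**Figure D1:**
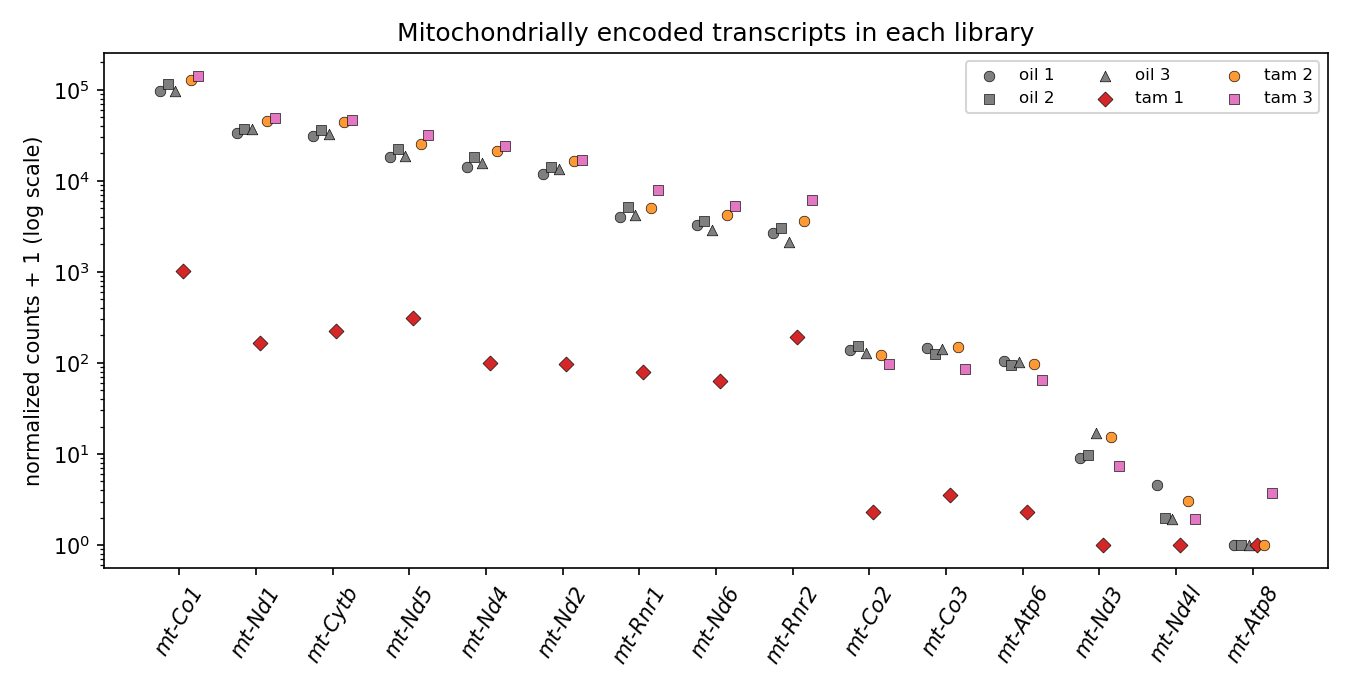
Normalized counts plus 1 (log axis) of the 13 mt- members and the 2 mitochondrial rRNAs, ordered by their mean over the libraries labelled oil; each point is 1 library. The library labelled tamoxifen 1 (red) lies below the other 5 for every gene except mt-Atp8, and those labelled tamoxifen 2 and 3 lie above the oil libraries in the 7 abundant members (12.6% of all genes tested do).

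Over all 6 libraries no mt- member passed the test. The log2 fold changes of the 10 tested ran from -2.32 (mt-Nd1, SE 2.11) to -1.52 (mt-Nd6, SE 1.62), with a median of -2.08 beside -0.017 for all genes tested, and the lowest limma adjusted p was 0.666. The size of this median depended on the tool, at -0.173 by edgeR, with 1 of the 10 above 0, and -0.198 by DESeq2. In limma none had an unadjusted p under 0.05. mt-Co2 alone was lower with tamoxifen in all 3 libraries, where 9.69% of all genes tested were. The sign of the 7 abundant members rested on 1 library. Without the library labelled tamoxifen 1 the 7 abundant members had log2 fold changes between 0.34 (mt-Nd2) and 0.55 (mt-Nd6), and all 7 had an unadjusted p under 0.05, where 6.04% of all genes did so in this direction. These 7 genes share the libraries and are transcribed within long precursors, so they are not 7 independent results. Their limma adjusted p lay between 0.142 and 0.288 and their edgeR adjusted p between 0.0853 and 0.165, so that neither tool called any (edgeR called 0.364% of the 12628 genes it tested). DESeq2, which called 0.967% of the 23788 genes it tested, called all 7, with adjusted p from 0.000318 (mt-Cytb) to 0.0188 (mt-Nd2), and 0.731% of those 23788 genes were called as higher. Of the 12298 genes tested by limma, DESeq2 called 227. The low members mt-Co2, mt-Atp6 and mt-Co3 had log2 fold changes of -0.37, -0.35 and -0.29 in the limma fit without that library, with adjusted p of 0.455 to 0.668.

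Summed over the 7 abundant members, the libraries reached 208385, 249229 and 218417 normalized counts with oil and 1986, 286613 and 312736 with tamoxifen. The mean of the libraries labelled tamoxifen 2 and 3 was 1.33 times that of oil, and an exact two-sided permutation test of these against the oil libraries gave p = 0.1, the smallest that 3 against 2 allows, which was 0.167 after adjustment over the 10 library values tested. Over all 6 libraries the exact p was 1. As a share of the reads of named genes, mt- members took 0.978%, 1.16% and 0.9998% with oil and 0.00813%, 1.32% and 1.49% with tamoxifen. The mitochondrial rRNAs, mt-Rnr1 and mt-Rnr2, which are no subunits, were summed in the same way, with 6642, 8264 and 6346 with oil and 269.7, 8644 and 14020.1 with tamoxifen. Once the library labelled tamoxifen 1 was left out, mt-Rnr2 did not overlap between the groups, while mt-Rnr1 did, at 5212 in the library labelled oil 2 and 5028 in that labelled tamoxifen 2.

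Nuclear subunits had overlapping totals. The 83 nuclear members summed to 293378, 277022 and 302715 normalized counts with oil and to 288223, 297950 and 262906 with tamoxifen (exact two-sided permutation p = 0.6). Per 100 reads of nuclear members there were 71.2, 90.1 and 72.3 reads of mt- members with oil and 0.691, 96.3 and 119 with tamoxifen. Among libraries labelled oil the median coefficient of variation of nuclear members was 6.03%, beside 8.08% for all genes tested, which were not matched for level. Single nuclear members tested ran from 1.10% (Sdhc) to 29.3% (Ndufb2). In the other lists described below the median was 5.2% (citric acid cycle), 6.4% (mitochondrial DNA expression), 8.0% (assembly factors) and 9.7% (carriers and coenzyme Q). Per kilobase of exon, mean levels with oil were 67148 for mt-Co1, 37549 for mt-Nd1 and 29285 for mt-Cytb, and among nuclear members they were highest for Cox6a1 (10488), Atp5b (10116) and Atp5a1 (9124). This nuclear order depends on the length used. Atp5b has 4237 exon bases and a longest transcript of 1916, and Cox6a1 has 702 and 620.

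None of the 77 nuclear members tested passed an adjusted p of 0.05 in limma, edgeR or DESeq2 over all 6 libraries, and in limma none had an unadjusted p under 0.05. Their median log2 fold change was -0.20 beside -0.017 for all genes, with 25 above 0 and 52 below. The size of this median rested mostly on the library labelled tamoxifen 1. Relative to the mean of the oil libraries, the median nuclear member was at -0.53 on the log2 scale in the library labelled tamoxifen 1, at 0.028 in tamoxifen 2 and at -0.14 in tamoxifen 3. Without the library labelled tamoxifen 1 the median log2 fold change was -0.044, with 22 above 0 and 55 below, from -0.47 to 0.57. In the same fit the median of all genes tested was -0.021, with 5507 above 0 and 6791 below. The library labelled tamoxifen 3 was the lowest of the 5 libraries left in 50 of 77 nuclear members, where 33.7% of all genes tested were.

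**Figure D2:**
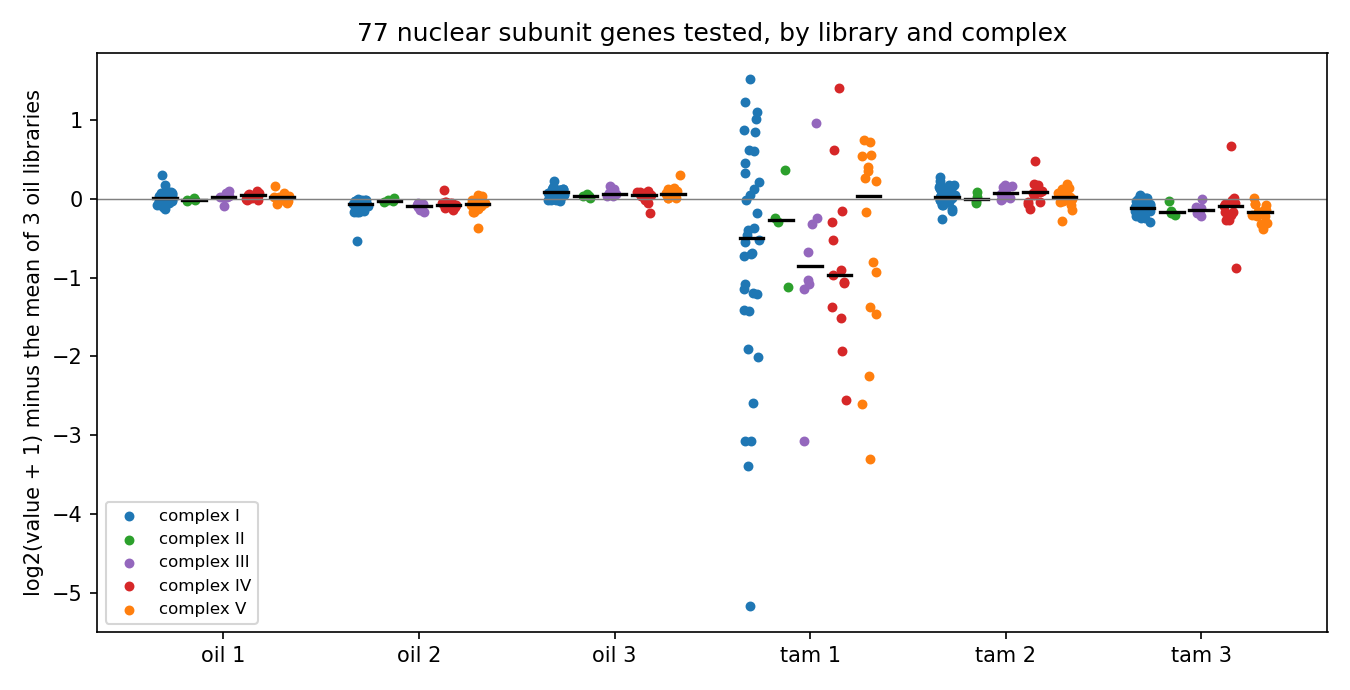
Each point is 1 of the 77 nuclear members tested, as log2(value + 1) minus its mean over the 3 libraries labelled oil, by library and complex; black bars are medians. Most points lie close to 0 in 5 libraries, and points spread widely in the library labelled tamoxifen 1 (tam 1).

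Complex I, the NADH dehydrogenase, had 37 nuclear members, of which 36 were tested. Their median log2 fold change was -0.19 over all libraries and -0.039 without the library labelled tamoxifen 1. Ndufb4, an accessory membrane subunit, had the lowest fold change, with 1114, 972 and 1191 with oil and 29.4, 979 and 1121 with tamoxifen (log2 fold change -1.76 ± 1.34 SE, limma adjusted p = 0.666). Ndufa11, an accessory subunit at the membrane arm, had the highest, with 641, 612 and 619 with oil and 1787, 636 and 561 with tamoxifen (log2 fold change 0.46 ± 0.43 SE, adjusted p = 0.667). Both values rested on the library labelled tamoxifen 1, and without it they were -0.055 and -0.062. Ndufb4 shares 29.3% of its 150-base windows with Ndufb4c, so its count is uncertain.

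Ndufa4, named for complex I and now counted as a subunit of complex IV, had 2542, 2572 and 2793 normalized counts with oil and 982, 2983 and 2401 with tamoxifen. Its log2 fold change was -0.46 ± 0.40 (SE) over all libraries and 0.023 ± 0.10 without the library labelled tamoxifen 1. The groups overlapped in both cases. Its paralog Ndufa4l2, which is known as induced in hypoxia, was at 0.898 to 2.89 normalized counts, at most 3 reads in any library.

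Complex II, succinate dehydrogenase, also belongs to the citric acid cycle. Sdha, its flavoprotein, had 8181, 8270.0 and 8558 normalized counts with oil and 7049.8, 8497 and 8194 with tamoxifen. Sdhb, its iron-sulfur protein, had 2718, 2693 and 2864 with oil and 3562, 2934 and 2431 with tamoxifen, the highest fold change of the complex (0.092 ± 0.17 SE). The groups of these 2 genes overlapped. The log2 fold change of Sdhb was -0.046 without the library labelled tamoxifen 1, and that of Sdha, 0.0015, was then the highest. Of the membrane anchors, Sdhc had 4423, 4489 and 4519 with oil and 2067, 4324 and 4029.5 with tamoxifen, with no overlap (log2 fold change -0.44 ± 0.29 SE, limma adjusted p = 0.666, and -0.10 ± 0.072 without the library labelled tamoxifen 1). Sdhd had 4771, 4597 and 4832 with oil and 3847, 4630.2 and 4091 with tamoxifen, which overlapped (-0.18 and, without that library, -0.12).

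In complex III, the cytochrome bc1 complex, 8 nuclear members were tested, with a median log2 fold change of -0.30 and of -0.032 without the library labelled tamoxifen 1. Uqcrc1, a core protein, had both the highest mean of the nuclear members and the highest fold change, with 8603, 8169.7 and 8746 normalized counts with oil and 16511, 8519 and 7572 with tamoxifen. Uqcrb, a small ubiquinone-binding subunit, had the lowest fold change, with 1066, 1004 and 1094 with oil and 124, 1193 and 905 with tamoxifen. The log2 fold changes, 0.26 ± 0.30 and -1.04 ± 0.81 (SE), became -0.082 and -0.021 without the library labelled tamoxifen 1.

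In complex IV, cytochrome c oxidase, 13 of 18 nuclear members were tested, with a median log2 fold change of -0.38 and of -0.041 without the library labelled tamoxifen 1. Cox6a1 had the highest mean over 6 libraries and the highest fold change of the nuclear members, with 7257, 7115 and 7715 normalized counts with oil and 19464, 7808 and 6555 with tamoxifen (0.44 ± 0.40 SE). Both ranks rested on the library labelled tamoxifen 1, since its log2 fold change was -0.041 without it and its mean with oil, 7362, lay below those of Cox5b (8570.1) and Cox4i1 (7915). Cox7c had the lowest among the common subunits and in the complex, with 2741, 2403 and 2814 with oil and 449, 2839 and 2571 with tamoxifen (-0.83 ± 0.69 SE), and its log2 fold change was 0.030 without the library labelled tamoxifen 1. Cox7a2 had 2514, 2379 and 2676 with oil and 1203, 2707 and 2239 with tamoxifen. Its log2 fold change of -0.38 ± 0.30 (SE) became -0.034 ± 0.098 without the library labelled tamoxifen 1. The groups of these genes overlapped with and without that library.

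In complex V, the ATP synthase, all 16 nuclear members were tested, with medians of -0.065 and -0.064. Atp5b, the catalytic beta subunit and the nuclear member of the highest mean value, had 43708, 40217 and 44662 normalized counts with oil and 51217, 42726 and 36691 with tamoxifen (log2 fold change 0.011 ± 0.17 SE). Atp5g1, which encodes subunit c of the rotor, had the highest fold change, with 3448, 3487 and 3954 with oil and 5985, 4108 and 3221 with tamoxifen (0.25 ± 0.24 SE). Atp5j, coupling factor 6 of the stalk, had the lowest, with 3985, 3822 and 4143 with oil and 401, 4365 and 3795 with tamoxifen (-1.08 ± 0.88 SE). Without the library labelled tamoxifen 1 these 3 log2 fold changes were -0.11, 0.0060 and 0.032.

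The 3 libraries of each label did not overlap in 5 of 77 nuclear members, all lower with tamoxifen, namely Sdhc, Cox7a1, Atp5s, Ndufa7 and Cox7a2l. Among all genes tested 9.69% were lower and 7.86% higher in this way, so the share of members was below the background. Cox7a2l, a factor that joins complexes III and IV into supercomplexes, had 4636, 4254 and 4345 normalized counts with oil and 3973, 4027 and 4198 with tamoxifen (log2 fold change -0.12, and -0.10 without the library labelled tamoxifen 1). Without the library labelled tamoxifen 1, 7 members were lower (background 16.8%) and 1 higher (12.6%) in every library. Beside the 5 above these were Atp5g2 and Ndufb11, and the higher one was Cox6b2. At an unadjusted p under 0.05 there were then 2 nuclear members, Cox6b2 above (background 6.04%) and Atp5s below (6.06%), and none passed the adjusted p of 0.05 in limma, edgeR or DESeq2.

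Atp5s, a coupling factor related to the ATP synthase that was singled out after its values were seen, had 396, 398 and 418 normalized counts with oil and 84.4, 331 and 326 with tamoxifen. Its log2 fold change was -0.95 ± 0.53 (SE) over all libraries and -0.30 ± 0.11 without the library labelled tamoxifen 1 (limma adjusted p = 0.327). Both libraries labelled tamoxifen that remained lay below all those labelled oil.

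**Figure D3:**
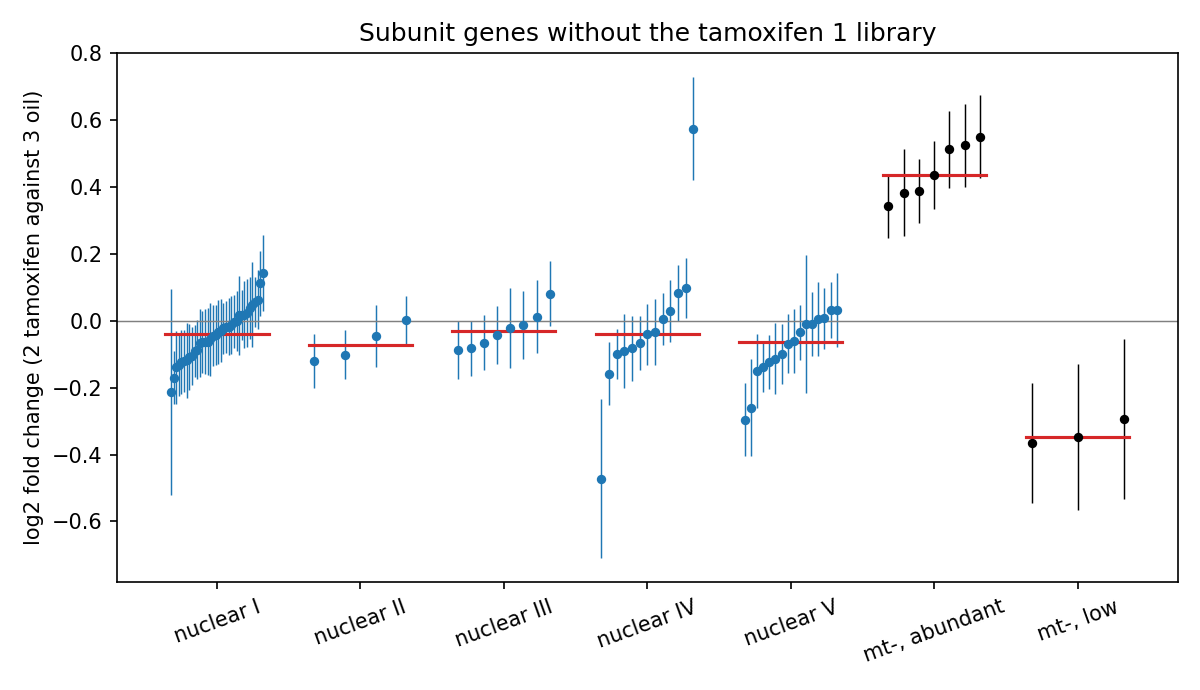
Log2 fold changes of the tested members, libraries labelled tamoxifen 2 and 3 against 3 labelled oil, by complex and genome, with standard errors from limma (vertical lines) and medians (red). Nuclear complexes lie near 0, the 7 abundant mt- members lie between 0.34 and 0.55, and Cox6b2 and Cox7a1 are the outermost points of complex IV.

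Several complex IV subunits exist as a common form and a paralog restricted to certain tissues, and most restricted paralogs had few or no reads. Cox7b2 and Cox8c, known from testis, had no read in any library, a count that allows up to 3 reads. Cox4i2, a hypoxia-responsive form, and Cox8b, a muscle form, had no read with oil and at most 1.28 and 2.56 normalized counts with tamoxifen. Cox6a2, the heart and muscle form, had 2.69, 1.93 and 1.86 with oil and 5.11, 4.04 and 9.09 with tamoxifen, from 2 to 10 reads. A value of 0 here may also come from the counting, since Sco2 and Pet117, assembly factors of complex IV that are broadly needed, were at 0 in all 6 libraries. The common partners Cox7b, Cox8a, Cox4i1 and Cox6a1 had means of 2895, 4817, 7915 and 7362 with oil.

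Cox6b2, the testis form of subunit 6B, and Cox7a1, the heart and muscle form of subunit 7A, were above the threshold for testing and lay on opposite sides relative to their partners. Cox6b2 had 177, 184 and 150.4 normalized counts with oil and 118, 236 and 272 with tamoxifen, and its partner Cox6b1 had 4268, 3789 and 4333 and then 2207, 3999.8 and 3415. Cox6b2 therefore made up 3.98%, 4.64% and 3.35% of the pair with oil and 5.06%, 5.58% and 7.38% with tamoxifen, with no overlap. Cox7a1 had 146, 132 and 131 with oil and 47.3, 130.3 and 73.7 with tamoxifen, and made up 5.50%, 5.26% and 4.66% of its sum with Cox7a2 with oil and 3.78%, 4.59% and 3.19% with tamoxifen, again with no overlap. For each share the exact two-sided permutation p was 0.1, the smallest that 3 against 3 allows, and 0.5 after adjustment over the 10 library values tested. Per kilobase of exon, Cox6b2 stood at 153.9 beside 5834 for Cox6b1, and Cox7a1 at 255 beside 2673 for Cox7a2, as means with oil. These levels too depend on the length used, since Cox6b2 has 1108 exon bases and a longest transcript of 585.

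For Cox6b2 itself the log2 fold change was 0.21 ± 0.34 (SE) over all libraries (limma adjusted p = 0.765) and 0.57 ± 0.15 without the library labelled tamoxifen 1 (adjusted p = 0.188). With library weights, under which limma called 6.36% of all genes, Cox6b2 was the only member called (adjusted p = 0.0316). The weights were 0.0377, 0.956 and 3.37 for the libraries labelled tamoxifen 1, 2 and 3. Within the tamoxifen label this fit therefore drew mostly on tamoxifen 3, which held the highest value of Cox6b2. For Cox7a1 it was -0.82 ± 0.38 (adjusted p = 0.666) and -0.47 ± 0.24 (adjusted p = 0.467). The library labelled tamoxifen 1 held the lowest value of both genes, so that the share of Cox6b2 separated the groups while its level did not. After the correction for GC content described below, the log2 fold changes over all libraries were 0.017 for Cox6b2 and -0.99 for Cox7a1. The shares were not corrected for GC content, which is 55.7% in Cox6b2 and 51.0% in Cox6b1.

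**Figure D4:**
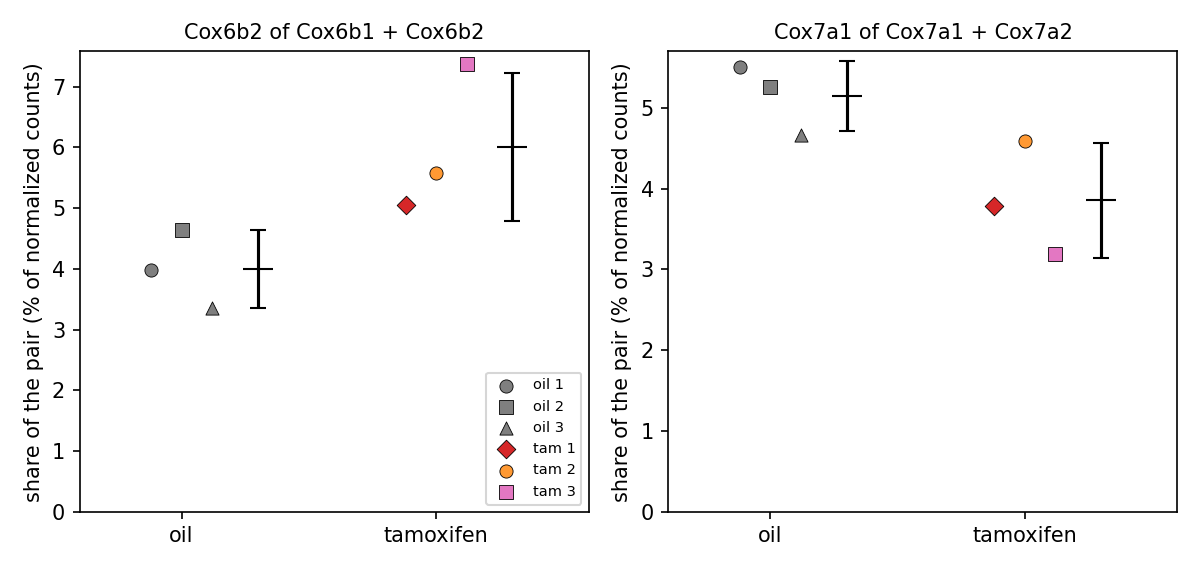
Share of Cox6b2 in the sum of Cox6b1 and Cox6b2 (left) and of Cox7a1 in the sum of Cox7a1 and Cox7a2 (right), in % of normalized counts; points are libraries, and black bars show the mean ± SD of 3. The 3 libraries labelled tamoxifen lie above those labelled oil for Cox6b2 and below them for Cox7a1.

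In the library labelled tamoxifen 1 nuclear subunits spread in both directions. Relative to the mean of the other 5 libraries, nuclear members ranged from -5.14 (Ndufb4) to 1.54 (Ndufa11) on the log2 scale, with 50 of 77 below every other library and 24 above every other, where 41.6% and 41.1% of all genes were. Members of low GC content were lower. The median deviation was -1.38 in the 14 members below 45% GC, -0.74 in the 23 from 45% to 50%, -0.13 in the 26 from 50% to 55% and 0.50 in the 14 above. In the same bins the medians of all nuclear protein-coding genes tested were -1.08, -0.18, 0.37 and 0.85. Across the 77 members, which share the library, Spearman's correlation of deviation and GC content was 0.495, beside 0.704 across 10797 nuclear protein-coding genes.

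The mt- members had a GC content of 31.9% to 41.1%. The 7 abundant ones lay between -7.90 (mt-Nd1) and -5.89 (mt-Nd6). Of the 998 nuclear protein-coding genes in the same GC range, which had a median of -1.51, 1 lay at or below -5.89. After correction for GC content by a smooth curve fitted to each library, the median log2 fold change over all 6 libraries was -1.36 for mt- members and -0.13 for nuclear members. The part of GC content in these values was not tested further.

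**Figure D5:**
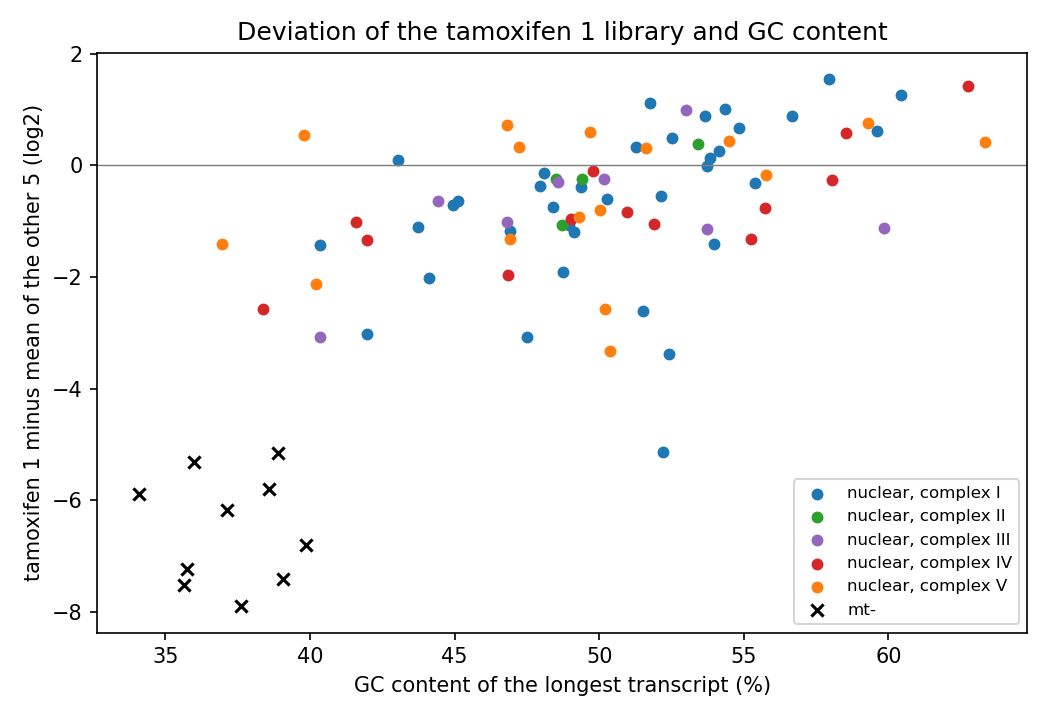
Deviation of the library labelled tamoxifen 1 from the mean of the other 5, in log2(value + 1), against the GC content of the longest annotated transcript, for the 87 members tested. Nuclear members spread around a rising trend, and the mt- members (crosses) lie below -5 at the low end of GC.

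Nuclear members shared little sequence with other genes. In 66 of 83 no 150-base window of the longest transcript occurred in another annotated gene, in 17 at least 1 did, and in none did more than 29.3%. Atp5o, which overlaps another annotated gene of the same symbol, shared 26.6% with Gm15976 on the opposite strand, and Ndufb6 shared 21.2% with Smim27, also on the opposite strand. Ndufb2, the nuclear member of lowest level among those tested at 30.9 to 55.7 normalized counts with oil, shared none.

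Many nuclear subunit genes are known targets of the transcription factors NRF1 and GABP, and YY1 binds some of their promoters. Promoter sequences (250 bases before to 50 after the start, RefSeq, GRCm38.p6) were matched for 68 of 83 nuclear members and searched on both strands. The NRF1 and YY1 motifs used here had been shortened after a first count was seen. The NRF1 motif GCGCANGCG stood in the promoters of 20 of 68 members (29.4%), beside 7.03% of all genes in the table and 16.0% of those tested. The GABP motif CCGGAAGT stood in 7.35% of members, 4.31% of all genes and 9.94% of those tested, and the YY1 motif AAGATGGCG in 10.3%, 1.64% and 3.94%. None of the 3 motifs holds another. These matches describe the sequences, and a window without the letters says nothing about binding. In the promoters printed here, NRF1 matches on either strand are in capitals. Uqcrc1 (chr9:108936398-108936697, plus strand) has the highest mean of the nuclear members of complex III, Ndufb4 (chr16:37654319-37654618, minus strand) deviated most of the nuclear members in the library labelled tamoxifen 1, and Cox6b2 (chr7:4753045-4753344, minus strand) and Cox7a1 (chr7:30183921-30184220, plus strand) are the restricted paralogs and hold no match.
Uqcrc1: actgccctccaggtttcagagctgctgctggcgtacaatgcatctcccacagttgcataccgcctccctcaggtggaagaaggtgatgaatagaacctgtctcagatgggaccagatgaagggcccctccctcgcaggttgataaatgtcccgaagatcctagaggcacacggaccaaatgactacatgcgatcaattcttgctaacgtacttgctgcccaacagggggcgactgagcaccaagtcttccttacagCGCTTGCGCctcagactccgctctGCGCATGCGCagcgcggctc
Ndufb4: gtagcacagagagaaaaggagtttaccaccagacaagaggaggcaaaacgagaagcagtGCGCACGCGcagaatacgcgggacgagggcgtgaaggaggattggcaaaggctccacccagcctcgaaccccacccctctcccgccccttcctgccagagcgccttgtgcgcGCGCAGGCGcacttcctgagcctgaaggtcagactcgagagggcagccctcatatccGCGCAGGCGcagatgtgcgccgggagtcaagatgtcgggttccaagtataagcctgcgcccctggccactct
Cox6b2: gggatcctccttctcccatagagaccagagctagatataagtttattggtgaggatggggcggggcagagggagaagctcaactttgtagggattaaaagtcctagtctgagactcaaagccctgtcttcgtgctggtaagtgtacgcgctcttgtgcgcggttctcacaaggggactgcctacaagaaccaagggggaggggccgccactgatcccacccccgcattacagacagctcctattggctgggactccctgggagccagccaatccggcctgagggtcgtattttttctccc
Cox7a1: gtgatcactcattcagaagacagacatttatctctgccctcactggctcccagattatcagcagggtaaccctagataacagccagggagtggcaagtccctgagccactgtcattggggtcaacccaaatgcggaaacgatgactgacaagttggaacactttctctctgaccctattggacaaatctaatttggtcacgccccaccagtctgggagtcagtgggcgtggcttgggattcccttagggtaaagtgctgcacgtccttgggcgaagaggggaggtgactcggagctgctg

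Other genes that serve the same pathway, in lists fixed for this report, also held no gene past an adjusted p of 0.05 in limma. Of 48 assembly factors tested, 19 had a log2 fold change above 0 and 29 below, with a median of -0.093. Those with the smallest p were Cox18, which inserts a complex IV subunit into the membrane (239, 249.9 and 266 normalized counts with oil, 367, 328 and 305 with tamoxifen), Sdhaf2, which adds the flavin to Sdha (1591, 1548 and 1626, then 877, 1405 and 1326), and Cox20, a chaperone of mt-Co2 (19.8, 9.65 and 20.4, then 94.6, 20.2 and 25.5). Of the 48, Cox18 alone was higher in every library labelled tamoxifen (7.86% of all genes tested were), 6 were lower (9.69%), Sdhaf2 among them, and Cox20 overlapped. All 3 had a limma adjusted p of 0.666. The median of the list was -0.053 without the library labelled tamoxifen 1, and the log2 fold changes of Cox18, Sdhaf2 and Cox20 were 0.33, -0.22 and 0.50.

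Of 25 genes of mitochondrial DNA expression and its regulators, 10 lay above 0 and 15 below, with a median of -0.065 and of 0.0070 without the library labelled tamoxifen 1. Ppargc1b, a coactivator of mitochondrial gene expression, had the smallest p of this list, with 179, 222 and 213 normalized counts with oil and 566, 251 and 356 with tamoxifen. Its log2 fold change was 0.86 ± 0.32 (SE) over all libraries and 0.55 without the library labelled tamoxifen 1, with limma adjusted p of 0.666 and 0.265. Tfb1m, an rRNA methyltransferase of mitochondria, had 334, 372 and 419.7 with oil and 135, 335 and 291 with tamoxifen, and Esrra, a nuclear receptor that activates these genes, had 789.6, 823 and 844 with oil and 2226, 886 and 903 with tamoxifen. Of the 25, Ppargc1b and Esrra were higher in every library labelled tamoxifen and 2 others, Gabpa and Tefm, were lower, beside 7.86% and 9.69% of all genes tested, while Tfb1m overlapped. The log2 fold changes of 0.57 for Esrra and -0.66 for Tfb1m were 0.13 and -0.26 without the library labelled tamoxifen 1.

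Among 20 genes of electron carriers, coenzyme Q synthesis and subunits outside the name rule, 11 lay above 0 and 9 below (median 0.023, and -0.049 without the library labelled tamoxifen 1). Coq3, a methyltransferase of coenzyme Q synthesis, had 343, 307 and 286 normalized counts with oil and 156, 267 and 225 with tamoxifen, with no overlap (log2 fold change -0.56, limma adjusted p = 0.666, and -0.34 without that library). Of the 20, it alone was lower with tamoxifen in this way, beside 9.69% of all genes tested, and 0 were higher (7.86%). Among 13 genes of the citric acid cycle, 5 lay above 0 and 8 below (median -0.10, and -0.047 without that library). Sucla2, a subunit of succinyl-CoA ligase, had the smallest p of these, with 1521, 1613 and 1736 with oil and 819, 1641 and 1271 with tamoxifen, which overlapped (-0.44, and -0.17 without that library).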

How the data were processed

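Bulk RNA-seq counts per gene were deposited as a normalized signal: the authors aligned and counted the reads with a STAR and DESeq2 pipeline on mm10, per the labels and the study's methods, and divided each library by a size factor. Versions, annotation and filters are not given in the sources used here. All values above 0 were whole multiples (tolerance 0.01) of the value of 1 read, 0.898 to 1.28, which recovered whole reads. The 1832 rows without a gene name (0.0400% to 0.0614% of reads) stayed out.

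limma 3.58.1 (R 4.3.3; lmFit, eBayes with trend) was run on log2(value + 1), a scale that understates changes of low genes, for 12298 genes with a value of at least 10 in 3 libraries, two-sided, with Benjamini-Hochberg adjustment over all genes. edgeR 4.0.16 and DESeq2 1.42.0 on recovered reads, other scalings, filters, pseudocounts, library weights, GC correction and left-out libraries were alternatives. The limma step was tested on simulated data. Named were all mt- members, Ndufa4, Cox7a2, the 4 Sdh genes, restricted paralogs with partners, in each complex the nuclear members of the highest mean and the highest and lowest fold change, those with an unadjusted p under 0.05, and up to 3 genes of the smallest p in each other list. Some items that this rule names are not reported here. The NRF1 and YY1 motifs were shortened by 1 and 2 letters after a first count had been seen. Members and lists were chosen with earlier results of these data known. Replicates were mice, per the study's methods. Reads are not independent molecules, so floors of 3 reads cover counting error only.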

Additional observations from a re-analysis of the deposited data

How the results depend on the processing

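No nuclear and no mt- member passed an adjusted p of 0.05 over the 6 libraries in limma, edgeR, DESeq2 or voom, under any scaling, filter or pseudocount tried, or without any 1 library in limma. The exceptions were library weights, with 1 nuclear member (Cox6b2, log2 fold change 0.595, limma adjusted p = 0.0316), and DESeq2 without the library labelled tamoxifen 1, with 7 mt- members. The weight was lowest for the library labelled tamoxifen 1 (0.0377) and highest for tamoxifen 3 (3.37). Over all genes 0 were called, but 782 with library weights, 71 by DESeq2, 2 with GC correction and 0 to 41 when 1 library was left out. Without the library labelled tamoxifen 1, counts were 46 by edgeR, 230 by DESeq2, 45 with GC correction, 35 with CPM or upper-quartile scaling and 41 with TMM; these fits were chosen after seeing the data, and the cause of the differences was not tested.

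The median log2 fold change of nuclear members was -0.286 to -0.0438 with 1 library left out, and -0.251 to -0.0816 under the other alternatives. That of mt- members was -3.17 to 0.386 with 1 library left out, 0.324 with library weights, -0.173 by edgeR (1 of 10 above 0) and -0.198 by DESeq2, and -2.11 to -1.36 otherwise. The median of all genes was 0.11 by DESeq2, over 24246 genes, and 0.04 by limma with no filter on low values, over 24247. Without the library labelled tamoxifen 1, scalings, tools and GC correction gave 0.435 to 0.486 for the 7 abundant mt- members and -0.0438 to -0.0233 for nuclear members, with 7 of 7 mt- members above 0 in each. Of 32 named members tested, 12 kept their sign over the 20 alternatives other than those chosen after seeing the data. The replicate block left the medians at -0.201 and -2.08 and the calls at 0. Correlations of the deviations of same-numbered libraries from their group means were -0.024, 0.061 and -0.15, and that of oil 1 with tamoxifen 3 was 0.129. Because the library labelled tamoxifen 1 weighs on the mean of its group, these values cannot show whether the numbers pair the mice.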
